A study of Homo sapiens with 4 samples.

Results

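In 179 genes, the crosslinked reads of the catalytically dead helicase FH-DHX36-E335A lay mainly in the 3'UTR, while those of the active helicase FH-DHX36 lay mainly in the coding sequence (CDS). The genes were chosen by the measured reads themselves. Each had at least 100 crosslinked reads in both PAR-CLIPs, at least 50% of its FH-DHX36-E335A reads in the 3'UTR and at least 50% of its FH-DHX36 reads in the CDS. They are 179 of the 3117 genes with at least 100 reads in both PAR-CLIPs, out of 26490 genes in the table. The shares and read numbers below are therefore a description of the genes the rule picked, and no test was made on them.

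PAR-CLIP is a method in which 4-thiouridine is built into the RNA of living cells, UV light crosslinks it to bound protein, and the crosslinked sites are read as T-to-C conversions in the cDNA. It was performed in HEK293, a human embryonic kidney cell line, in stable lines with HA-Flag tagged (FH) DHX36 under tetracycline control, induced with 500 ng/ml for 15 h and irradiated at 365 nm for 5 min. The labels give FH-DHX36 as isoform 2 and FH-DHX36-E335A as isoform 1, so that the isoform and the mutation cannot be told apart. There were 2 replicates per cell line, but the table has 1 value per gene and cell line, so no spread between replicates can be given and every difference compares 2 values.

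DHX36 is a DEAH-box helicase that binds and unwinds G-quadruplexes, stacks of guanine tetrads formed by 4 nearby runs of G in one nucleic acid strand. The E335A change removes the catalytic glutamate needed for ATP hydrolysis, so the protein can bind RNA but cannot drive unwinding. An mRNA can hold G runs in the 5'UTR, the CDS and the 3'UTR, and ribosomes pass through the CDS but not normally through the 3'UTR.

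The G-run sequences of 6 member genes are shown first, because they show what kind of sequence each region could offer to a quadruplex-binding protein. Each is the match with the most G in its region, among matches of 4 runs of at least 2 G separated by 1 to 7 nt on the sense strand, and capitals mark the G runs. A spacer may itself be G, so that a long run can count as more than 1. LMNB2, HNRNPK, ARID1A, EID2 and TTC8 are among the 10 members with the most reads, and FAM98A is a member with a large scaled change in both regions. Coordinates are GRCh37. The table gives no cluster positions, so that none of these stretches is known to be a bound site.
LMNB2 CDS (chr19:2433933-2433950, minus strand): GGGcacGGGcacGGGtGG
LMNB2 3'UTR (chr19:2429683-2429702, minus strand): GGGGtGGcgtGGGGctGGGG
HNRNPK CDS (chr9:86585692-86585720, minus strand): GGGGGtcgtGGctcatatGGtgatcttGG
HNRNPK 3'UTR (chr9:86584091-86584109, minus strand): GGGttGGGGGGGGGaaGGG
ARID1A CDS (chr1:27023708-27023727, plus strand): GGGGccatGGGGGGaGGcGG
EID2 CDS (chr19:40030443-40030463, minus strand): GGGcagccgcGGcGGGcaGGG
EID2 3'UTR (chr19:40029883-40029904, minus strand): GGtGGaGGGGaaaaaaaGGGGG
TTC8 CDS (chr14:89338760-89338783, plus strand): GGctgtgctGGagatgcGGaaGGG
TTC8 3'UTR (chr14:89344201-89344212, plus strand): GGGaGGtGGaGG
FAM98A CDS (chr2:33810279-33810295, minus strand): GGtGGccgaGGGGGaGG
The 3'UTRs of ARID1A and FAM98A held no match, whereas their CDS held 33 and 15. Their CDS were also longer, at 6858 and 1557 nt against 3'UTRs of 1348 and 1116 nt. ARID1A and FAM98A are not typical in this, since 160 of the 179 members had a 3'UTR match. On the same build LMNB2 spans chr19:2427636-2456957, HNRNPK chr9:86582998-86595546, ARID1A chr1:27019727-27108595, EID2 chr19:40029347-40030801 and TTC8 chr14:89290497-89347422.

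The table held 8752127 crosslinked reads for FH-DHX36-E335A and 2160413 for FH-DHX36, a ratio of 4.05. Reads that were compared between the PAR-CLIPs were divided by these totals, and such values are called scaled. Over the 3117 genes with enough reads in both, the 3'UTR held 53.1% of FH-DHX36-E335A reads and 39.1% of FH-DHX36 reads, and the CDS held 16.01% and 28.1%. The members thus lie in the direction in which the pooled reads of the table also differ.

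Of the 3117 genes, 49.2% had at least 50% of their FH-DHX36-E335A reads in the 3'UTR, and 26.2% had at least 50% of their FH-DHX36 reads in the CDS. Both held for 5.74%, the members. The reverse pattern, mainly CDS with FH-DHX36-E335A and mainly 3'UTR with FH-DHX36, was met by 12 genes or 0.385%. They included HNRNPA1, FKBP8, PPP2R1A, CLPTM1, GTPBP1, RABL6, SRA1, EFNB1, PABPC1, PREPL and MORC4, with HNRNPA1 the most covered at 12290 FH-DHX36-E335A reads. Read from the starting region, 179 of 1534 genes with a 3'UTR majority in FH-DHX36-E335A had a CDS majority in FH-DHX36 (11.7%), and 1045 kept a 3'UTR majority (68.1%). Of the 437 genes with a CDS majority in FH-DHX36-E335A, 358 kept it (81.9%) and 12 had a 3'UTR majority in FH-DHX36 (2.75%). A share of exactly 50% counts as a majority, so these sets overlap slightly. ISG20L2 and KCTD2 are among both the 179 and the 1045, and ZSCAN20 is among both the 179 and the 358. With shares taken over exonic reads alone, 360 genes met the member rule and 72 the reverse, and with shares of clusters 258 and 119. Genes are not independent replicates, and these shares carry no test.

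**Figure D1:**
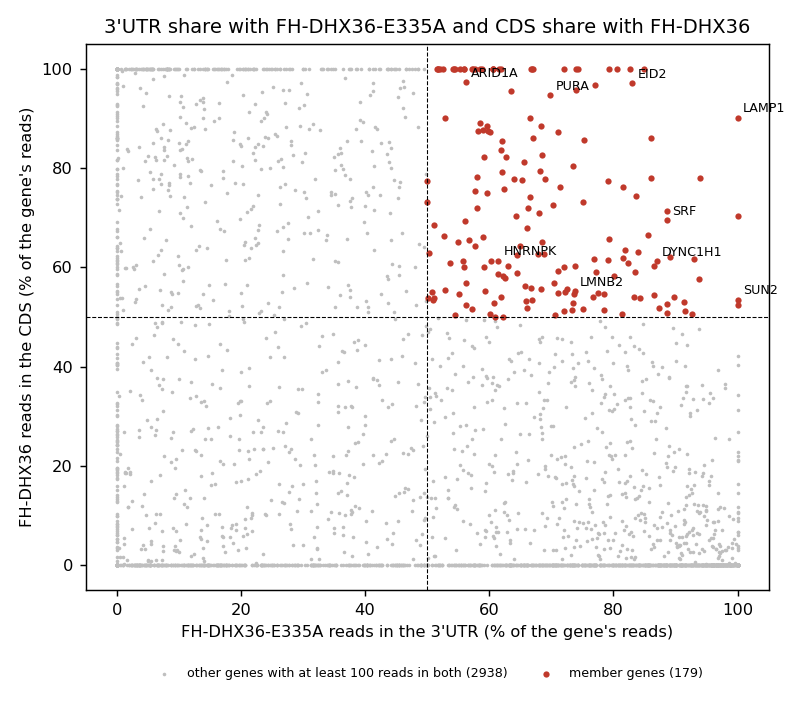
Each point is 1 of the 3117 genes with at least 100 crosslinked reads in both PAR-CLIPs; the x axis is the percentage of its FH-DHX36-E335A reads in the 3'UTR, the y axis the percentage of its FH-DHX36 reads in the CDS, and dashed lines mark 50%. The 179 members (red) fill the upper right corner by construction, and 31 of them lie at 100% on the y axis.

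Pooled over the 179 members, FH-DHX36-E335A had 292263 reads, of which 69.0% lay in the 3'UTR and 20.6% in the CDS. FH-DHX36 had 77386 reads, of which 22.6% lay in the 3'UTR and 69.7% in the CDS. The 5'UTR held 1.58% and 2.37% and introns 0.711% and 2.19%, and other annotation held 8.10% and 3.12%. The share of a single member's FH-DHX36-E335A reads in the 3'UTR had a median of 66.6%, and the share of its FH-DHX36 reads in the CDS a median of 66.3%. For 125 of the 179 members the 95% Wilson intervals of both shares lay above 50%. The rule already put both shares at 50% or more, so nothing about the members is read from this count. The intervals cover counting error only and treat each read as independent. Reads of 1 cluster can be PCR copies, so the intervals may be too narrow.

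The numbers of PAR-CLIP clusters, which are stretches covered by reads that carry T-to-C conversions, differed less between the regions than the reads did. The members held 1951 FH-DHX36-E335A clusters, 1088 in the 3'UTR (55.8%), 632 in the CDS (32.4%), 43 in the 5'UTR, 43 in introns and 145 of other annotation. They held 757 FH-DHX36 clusters, 397 in the CDS (52.4%), 270 in the 3'UTR (35.7%), 27 in the 5'UTR, 35 in introns and 28 of other annotation. Over all 3117 genes the 3'UTR took 48.1% of FH-DHX36-E335A clusters and 42.9% of FH-DHX36 clusters, and the CDS took 29.6% and 30.3%.

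A member had a median of 5 FH-DHX36-E335A clusters in the 3'UTR and 3 in the CDS, against 1 and 2 with FH-DHX36. The medians over all 3117 genes were 3 and 2 with FH-DHX36-E335A and 1 and 1 with FH-DHX36. Over the whole gene the FH-DHX36-E335A median was 8 in members and 9 over all, and genes with a 3'UTR majority in FH-DHX36-E335A had a median of 6 3'UTR clusters. In the 3'UTR, 160 members had fewer clusters with FH-DHX36 than with FH-DHX36-E335A, 15 had equally many and 4 had more. In the CDS, 97 had fewer, 44 equally many and 38 more. Over all 26490 genes there were 60208 FH-DHX36-E335A clusters and 16742 FH-DHX36 clusters. The same counts were not made over all genes, so nothing about the members is read from them.

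Clusters also differed in how many reads they carried. The CDS clusters of a member held a median of 72 reads each with FH-DHX36-E335A, over the 164 members that had any, and 100 with FH-DHX36, although FH-DHX36 had fewer reads in total. The 3'UTR clusters went the other way, with a median of 135 reads each with FH-DHX36-E335A against 44.8 with FH-DHX36 over the 130 members with any. The medians over all genes were 59 and 67 for the CDS, and 120 and 75.8 for the 3'UTR.

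**Figure D2:**
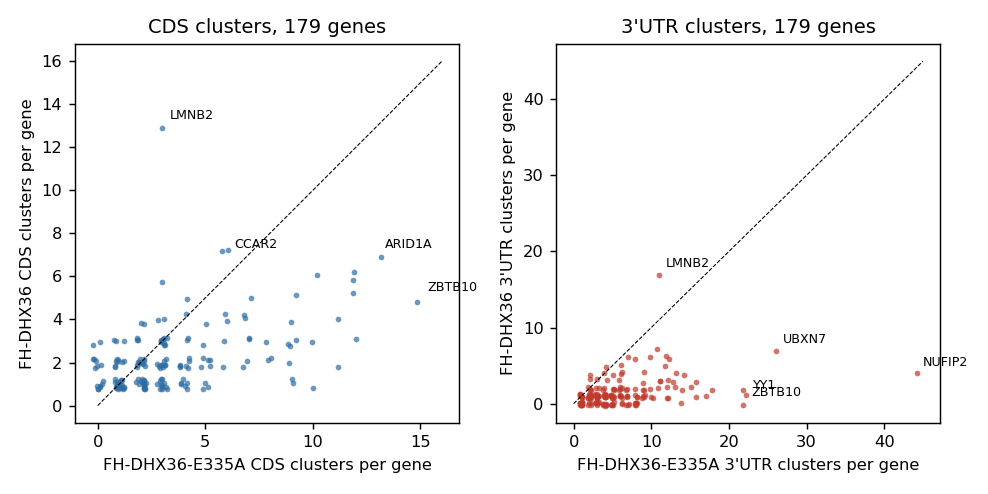
Number of clusters per member gene in the CDS (left) and 3'UTR (right), with FH-DHX36-E335A on the x axis and FH-DHX36 on the y axis; each point is 1 of 179 genes, moved by up to 0.25 at random so that points do not hide each other, and the dashed line marks equal numbers. In the 3'UTR 160 genes have fewer clusters with FH-DHX36, and LMNB2, with 17 against 11, is 1 of the 4 with more. FH-DHX36 also had fewer clusters over all genes together.

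The 10 members with the most reads, ranked by the smaller of their 2 read totals, were LMNB2, HNRNPK, SRSF11, ARIH1, DDX17, ADSS, ARID1A, EID2, NUDT19 and TTC8. They show that the same rule was met in different ways. In some there were few or no 3'UTR reads with FH-DHX36, and in others both regions held many.

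LMNB2, which encodes the nuclear lamina protein lamin B2, had 6871 FH-DHX36-E335A reads, 5067 of them in 11 3'UTR clusters and 315 in 3 CDS clusters. FH-DHX36 gave it 5165 reads, 2276 in 17 3'UTR clusters and 2854 in 13 CDS clusters. The 3'UTR share with FH-DHX36-E335A was 73.7% (interval 72.7 to 74.8%), and the CDS share with FH-DHX36 was 55.3% (53.9 to 56.6%). LMNB2 was not lower in the 3'UTR on the scaled measure. Its scaled 3'UTR reads were higher with FH-DHX36, by 0.86 on the log2 scale, and its scaled CDS reads were 36.7-fold higher.

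HNRNPK encodes an hnRNP protein that binds C-rich RNA. Of its 6128 FH-DHX36-E335A reads 3767 lay in the 3'UTR (6 clusters) and 2035 in the CDS (5 clusters). Of its 3860 FH-DHX36 reads 1335 lay in the 3'UTR (4 clusters) and 2369 in the CDS (2 clusters). The CDS held more reads with FH-DHX36 even before scaling, in fewer clusters.

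SRSF11 encodes an SR-related splicing protein. It had 3858 FH-DHX36-E335A reads in 12 3'UTR clusters and 1156 in 8 CDS clusters, against 542 FH-DHX36 reads in 5 3'UTR clusters and 2237 in 3 CDS clusters. Its scaled CDS reads were 7.84-fold higher with FH-DHX36. DDX17, a DEAD-box RNA helicase, had the most reads of any member with FH-DHX36-E335A, 10674, of which 7027 lay in 12 3'UTR clusters and 2824 in 12 CDS clusters. With FH-DHX36 it had 283 reads in 6 3'UTR clusters, 1115 in 6 CDS clusters and 492 in introns, which made up 24.8% of its reads. This was the largest intron share among these 10 members.

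ARIH1 encodes a RING-between-RING ubiquitin ligase. Its CDS reads were nearly equal in number, 1515 with FH-DHX36-E335A against 1539 with FH-DHX36, while its 3'UTR reads were 2641 and 305. ADSS, which encodes an enzyme of AMP synthesis, had 2137 and 171 3'UTR reads, and 1100 and 1591 CDS reads. Scaled by the totals, the log2 ratio was 2.04 for CDS reads and -1.09 for 3'UTR reads in ARIH1, and 2.55 and -1.62 in ADSS.

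ARID1A encodes a subunit of the BAF chromatin remodelling complex. FH-DHX36-E335A gave 2502 reads in 7 3'UTR clusters and 1895 in 13 CDS clusters. FH-DHX36 gave 1665 reads in 7 CDS clusters, 97.3% of its reads (interval 96.4 to 97.9%), and no 3'UTR cluster. Scaled by the totals, its FH-DHX36-E335A 3'UTR reads would have come to 617.6 FH-DHX36 reads, the most among members without a 3'UTR cluster.

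EID2, a single-exon gene for an inhibitor of differentiation and histone acetylation, had 5106 FH-DHX36-E335A reads in 3 3'UTR clusters and 609 in 4 CDS clusters. With FH-DHX36 it had 44 reads in 1 3'UTR cluster and 1459 in 1 CDS cluster. TTC8, a subunit of the ciliary BBSome, had 1052 reads in 2 3'UTR clusters and 315 in 2 CDS clusters with FH-DHX36-E335A, and 36 and 1068 reads in 1 cluster each with FH-DHX36. In EID2 and TTC8 nearly all FH-DHX36 reads came from 1 CDS cluster.

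NUDT19, which encodes a peroxisomal coenzyme A hydrolase, was close to the threshold, with 50.8% of 4591 FH-DHX36-E335A reads in the 3'UTR (interval 49.3 to 52.2%). It had 2331 3'UTR reads in 11 clusters and 1173 CDS reads in 6 clusters with FH-DHX36-E335A, and 315 in 7 and 764 in 7 with FH-DHX36.

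**Figure D3:**
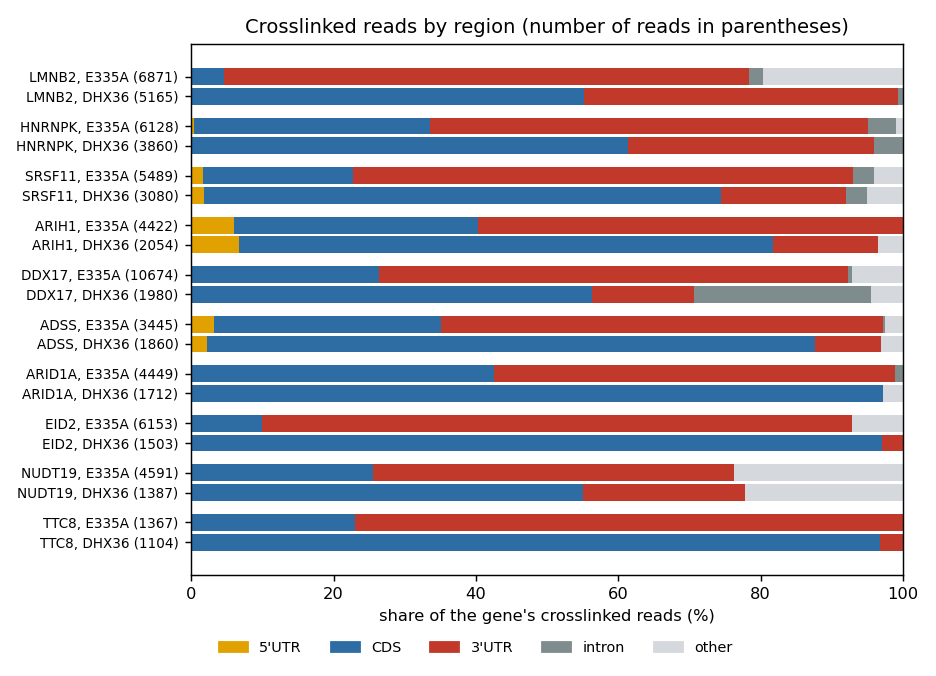
Share of crosslinked reads by region for the 10 members with the most reads, as stacked bars of 100% on a linear axis, with FH-DHX36-E335A (E335A) above FH-DHX36 (DHX36) for each gene and the number of reads in parentheses. ARID1A, EID2 and TTC8 have over 96% of their FH-DHX36 reads in the CDS, and LMNB2, HNRNPK and NUDT19 keep more than 20% in the 3'UTR.

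Scaled reads tell a higher CDS from a lower 3'UTR, although both ratios use the reads by which the members were chosen. The median log2 ratio of FH-DHX36 over FH-DHX36-E335A was 2.03 for CDS reads and -2.08 for 3'UTR reads. Over all genes with reads in the region it was 0.05 for the CDS (2696 genes) and -1.04 for the 3'UTR (2807 genes). In 91 members the CDS held more FH-DHX36 reads even without scaling, against 572 of all 3117 genes (18.4%). In no member did the 3'UTR, against 247 of all (7.92%).

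The scaled CDS reads were at least 2-fold higher with FH-DHX36 in 144 members, beside 36.1% of all genes with reads there. The scaled 3'UTR reads were at least 2-fold lower in 127, beside 48.6% of all. Both held in 94 members, beside 16% of all. Since the rule used these reads, nothing about the members is read from these counts.

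The members fell into 3 kinds by these ratios. In 50 the CDS was 2-fold higher and the 3'UTR within 2-fold or higher, as in LMNB2, HNRNPK and SUN2. In 33 the 3'UTR was 2-fold lower and the CDS within 2-fold or lower, as in DDX17, PDCD4 and NUFIP2, and 94 met both, as did ARID1A and EID2. DNAJA2, a DNAJ co-chaperone, and PPM1G, a protein phosphatase, met neither, with CDS ratios of 0.89 and 1.67.

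In 25 members the scaled 3'UTR reads were higher with FH-DHX36. The highest was CCDC124, which encodes a ribosome-associated protein, with 254 3'UTR reads for FH-DHX36-E335A and 240 for FH-DHX36. Its CDS reads were 140 and 397. The others besides LMNB2 and HNRNPK were ZC3H4, SUN2, SOGA1, ACVR1B, CCAR2, TBC1D16, ZNF444, CTU1, NUMA1, MRPS2, PPM1F, WDR89, KCTD2, DDRGK1, SH3PXD2A, LRFN1, SLC4A2, CHERP, NRSN2, ELP6, RIMKLA and KIF7. In these genes the CDS was higher and the 3'UTR was not lower on this scale.

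In 7 members the scaled CDS reads were lower with FH-DHX36, and the 3'UTR reads were lower still. They included DNAJA2, PDCD4, NUFIP2, EIF5, SCML1 and TNRC6C. PDCD4, an inhibitor of the initiation factor eIF4A, had 2221 CDS and 3970 3'UTR reads with FH-DHX36-E335A and 334 and 53 with FH-DHX36. TNRC6C, a GW182 protein of the microRNA pathway, had 756 and 1089 reads, and then 58 CDS reads and no 3'UTR cluster.

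**Figure D4:**
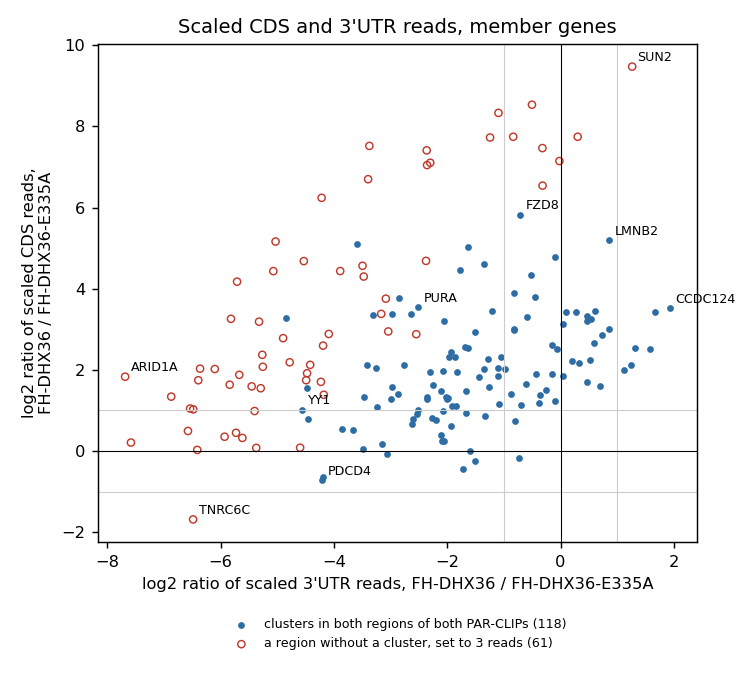
Log2 ratio of scaled reads, FH-DHX36 over FH-DHX36-E335A, in the 3'UTR (x axis) and CDS (y axis) for the 179 members; filled points are the 118 genes with clusters in both regions of both PAR-CLIPs, open points the 61 with a region without a cluster, whose reads were set to 3, and grey lines mark 2-fold. Most points lie at upper left, 25 lie right of 0 and 7 lie below 0.

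With FH-DHX36, 49 members had no 3'UTR cluster (27.4%), beside 34.4% of all 3117 genes. Among the 1534 genes with a 3'UTR majority in FH-DHX36-E335A, which all had a 3'UTR cluster there as the members did, it was 125 (8.15%). The rule favours genes with few FH-DHX36 3'UTR reads, so nothing about the members is read from these shares. A region without a cluster is listed at 0, although reads below the minimum of the cluster caller may lie in it, and the fewest reads listed for a gene and region were 5 for FH-DHX36. Scaled by the totals, the FH-DHX36-E335A 3'UTR reads of these 49 genes would have come to between 15.6 and 617.6 FH-DHX36 reads, with a median of 114.5, and to at least 100 in 26 of them.

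The 49 included ARID1A, MYPOP, PRMT6, ZNF503, CNNM3, ACTB, ASH1L, ZBTB10, ZNF106, TBX3, EXOSC6, RDH11, TNRC6B, ZNF281, ARPC1B, RPLP0, PTCD3, DDX54, HK2, YLPM1, KLHL12, BRPF1, PSEN2, AHDC1, HNRNPUL2, FAM174A, SEL1L, UFSP1, PDE12, NOTCH2, PPP1R26, DUS1L, SLC35B2, FAM155B, SEC16A, BACH2, WDR37, TMEM181, CCDC106, ARRDC4, NADK, MTO1, SLC16A9, CKAP4, TNRC6C, GFOD2 and KDM2A. In 31 of them every FH-DHX36 read lay in the CDS. MYPOP, a Myb-related transcription regulator, had the largest FH-DHX36 read number of these 31, with 1419 reads in 1 CDS cluster against 266 FH-DHX36-E335A reads in 1 CDS cluster and 408 in 3 3'UTR clusters. ZBTB10, a zinc finger regulator, had 2330 FH-DHX36-E335A reads in 22 3'UTR clusters and none with FH-DHX36, while its CDS had 1182 reads in 15 clusters and 337 in 5.

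In 15 members FH-DHX36-E335A had no CDS cluster (8.38%), beside 17.7% of all genes and 23.7% of the genes with a 3'UTR majority in FH-DHX36-E335A. The rule picks genes bound in the CDS by FH-DHX36, so nothing about the members is read from these shares either. The 15 were SUN2, BMP7, KCTD2, POU4F1, IER5, LAMP1, C4orf3, SYT11, TMEM43, CDC42SE2, FAM155B, PHB, WDR37, HOXA13 and NADK. Their FH-DHX36 CDS reads ranged from 56 to 527. Scaled by the totals these would have come to between 226.9 and 2135 FH-DHX36-E335A reads.

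SUN2, a nuclear envelope protein of the LINC complex, had all 772 of its FH-DHX36-E335A reads in 4 3'UTR clusters. With FH-DHX36 it had 458 reads in 4 3'UTR clusters and 527 in 2 CDS clusters. LAMP1, a lysosomal membrane protein, had all 225 FH-DHX36-E335A reads in 3 3'UTR clusters, and with FH-DHX36 26 reads in 1 3'UTR cluster and 239 in 2 CDS clusters. SYT11 and WDR37 were the other members with all FH-DHX36-E335A reads in the 3'UTR.

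FAM155B, WDR37 and NADK had neither a CDS cluster with FH-DHX36-E335A nor a 3'UTR cluster with FH-DHX36. FAM155B, a membrane protein gene also called NALF2, had 126 FH-DHX36-E335A reads in 1 3'UTR cluster and 136 FH-DHX36 reads in 1 CDS cluster. WDR37 had 128 in 4 3'UTR clusters and 77 in 1 CDS cluster, and NADK, which makes NADP, 226 in 6 and 56 in 1. These 3 genes shared no region of the CDS and 3'UTR between the PAR-CLIPs, at low read numbers.

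The 10 members with the largest sum of 3'UTR fall and CDS gain, in percentage points, were LAMP1, FAM155B, SLC16A9, EID2, BACH2, AHDC1, NOTCH2, RDH11, PDE12 and WDR37. NOTCH2, a receptor of the Notch pathway, had 1130 reads in 5 3'UTR clusters and 294 in 3 CDS clusters with FH-DHX36-E335A, and 150 in 2 CDS clusters with FH-DHX36. BACH2, a B-cell transcription repressor, had 362 reads in 3 3'UTR clusters and 76 in 1 CDS cluster, and then 129 in 2 CDS clusters. AHDC1 had 137 and 33 reads, and then 193 in 1 CDS cluster.

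SLC16A9, a monocarboxylate transporter family gene, had 467 3'UTR and 83 CDS reads with FH-DHX36-E335A and 106 CDS reads with FH-DHX36. RDH11, a retinol dehydrogenase, had 397 and 39 reads, and then 345 in the CDS. PDE12, a phosphodiesterase that removes poly(A) from mitochondrial RNA, had 1087 and 312, and then 157 in 4 CDS clusters. All of these genes except PDE12 had 1 or 2 FH-DHX36 clusters in the CDS. EID2, LAMP1, AHDC1, PIAS4, BACH2 and SLC16A9 were the members with both shares at 80% or more.

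FH-DHX36 gave 71 members 1 CDS cluster, 54 members 2, 29 members 3 and 25 members 4 or more, and 14 members had 1 FH-DHX36 cluster in all. The median number of FH-DHX36 CDS clusters was 2 in members, 1 over all 3117 genes and 2 in genes with a CDS majority in both PAR-CLIPs. Over the whole gene the FH-DHX36 median was 3 in each of these sets. The same counts were not made over all genes, so few clusters are not read as a trait of the members. Where the CDS majority rests on 1 cluster, it rests on 1 site. The 14 were MYPOP, TBX3, RPLP0, PTCD3, HK2, KLHL12, PSEN2, AHDC1, UFSP1, FAM155B, MTO1, SLC16A9, GFOD2 and KDM2A.

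The 25 members with at least 4 FH-DHX36 CDS clusters included LMNB2, DDX17, ARID1A, NUDT19, ZC3H4, PURA, FAM98A, WDR26, DNAJA2, YY1, PDCD4, CCAR2, ZNF503, CTU1, SRF, ZBTB10, DYNC1H1, PPM1G, NUFIP2, TNRC6B, LRFN1, FOXC1, YLPM1 and PDE12. In PURA, a single-stranded nucleic acid binding protein, 14 3'UTR clusters with 1154 reads and 3 CDS clusters with 311 reads stood against 2 with 50 and 6 with 893. In FAM98A, 5 3'UTR clusters with 4116 reads and 3 CDS clusters with 91 reads stood against 1 with 84 and 4 with 766. Both genes had more CDS clusters and more CDS reads with the shallower FH-DHX36.

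In SRF, the serum response transcription factor, 1763 3'UTR reads in 9 clusters and 119 CDS reads in 2 clusters stood against 44 in 2 and 301 in 4. In YY1, a zinc finger transcription factor, 2021 reads in 22 3'UTR clusters and 716 in 9 CDS clusters stood against 21 in 1 and 357 in 5. DYNC1H1, the heavy chain of cytoplasmic dynein, had 3558 FH-DHX36-E335A reads in a single 3'UTR cluster and 515 in 12 CDS clusters, and 152 and 240 reads in 1 and 5 clusters with FH-DHX36. NUFIP2, an RNA-binding partner of FMRP, had the most FH-DHX36-E335A 3'UTR clusters of any member, 44, and 4 with FH-DHX36. In YY1 and NUFIP2 clusters were fewer with FH-DHX36 in the CDS as well as in the 3'UTR, and in DYNC1H1 they were fewer in the CDS only.

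The members were sorted by the known roles of their products, after their names and values had been seen, and 135 of the 179 could be placed. The largest groups were RNA binding and processing and transcription factors. The counts of 2-fold differences in each group stand beside 144 and 127 of the 179 members and 36.1% and 48.6% of all genes, for the CDS and the 3'UTR, and follow largely from the member rule. Of 25 genes for RNA binding and processing, 16 had scaled CDS reads at least 2-fold higher and 19 scaled 3'UTR reads at least 2-fold lower with FH-DHX36. They included HNRNPK, HNRNPUL2, SRSF11, DDX17, DDX54, PRPF6, CHERP, PDCD7, YLPM1, CCAR2, ZC3H4, RPRD2, EXOSC6, ISG20L2, PDE12, SMG1, NOM1, FAM98A, FXR1, NUFIP2, TNRC6B, TNRC6C and YBX3. FXR1, a paralog of FMRP, had 2082 3'UTR and 196 CDS reads with FH-DHX36-E335A and 23 and 141 with FH-DHX36. All 25 had a CDS cluster with FH-DHX36-E335A, as did 164 of the 179 members and 82.3% of all genes. The rule gives every member a CDS cluster with FH-DHX36.

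Of 22 transcription factors, 18 had CDS reads 2-fold higher and 19 had 3'UTR reads 2-fold lower, with a median log2 3'UTR ratio of -3.34. They were BACH2, FOXC1, HOXA10, HOXA13, HOXC13, MGA, MYPOP, POU4F1, PURA, REST, SRF, TBX3, YY1, ZBTB10, ZBTB4, ZNF226, ZNF281, ZNF395, ZNF444, ZNF503, ZNF687 and ZSCAN20. REST, the repressor of neuronal genes, had 695 3'UTR reads in 12 clusters with FH-DHX36-E335A and 18 in 1 cluster with FH-DHX36, while its CDS reads were 381 and 391. FOXC1, a forkhead factor, had 4065 3'UTR and 522 CDS reads, and then 69 and 189. ZNF281 had 1423 3'UTR reads and then none listed.

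The 3 homeobox genes of the HOX clusters were 3 of the 12 HOX genes with enough reads, of which 7 had a 3'UTR majority in FH-DHX36-E335A. Over all genes the members were 5.74%, and the family was picked after its values were seen. HOXA10 had 2307 3'UTR and 565 CDS reads with FH-DHX36-E335A and 374 and 440 with FH-DHX36. HOXA13 had 339 3'UTR reads and no CDS cluster, and then 17 and 102. HOXC13 had 651 and 37, and then 50 and 54. HOXC13 and HOXA13 had under 120 FH-DHX36 reads in all.

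Chromatin and nuclear architecture gave 14 members, among them ARID1A, ASH1L, BAZ2A, BRPF1, EID2, KAT6A, KDM2A, LMNB2, NUMA1, PRMT6, SIN3A, SUN2 and TOP1. In 12 of them the CDS was 2-fold higher and in 10 the 3'UTR was 2-fold lower. ASH1L, a histone methyltransferase, had 1022 3'UTR and 514 CDS reads with FH-DHX36-E335A, and all 425 FH-DHX36 reads in 3 CDS clusters. PRMT6, an arginine methyltransferase, had 835 and 567, and then all 568 in 2 CDS clusters. Scaled by the totals, the CDS reads of PRMT6 were 4.06-fold higher with FH-DHX36, and none of its 7 3'UTR clusters was listed.

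Signalling gave 15 members. Of these, ACVR1B, BMP7, CRK, FZD8, GDF11, GNA13, HRAS, ITPKB, MAP2K1, NOTCH2, PPM1F, PPM1G, SH2B1, TRPC4AP and ZNRF3, only CRK, GNA13, HRAS, MAP2K1 and NOTCH2 had 3'UTR reads 2-fold lower, beside 48.6% of all genes, and the median log2 3'UTR ratio was -0.71. In 12 the CDS was 2-fold higher. FZD8, a Wnt receptor, had 1001 3'UTR and 18 CDS reads with FH-DHX36-E335A, and 151 and 252 with FH-DHX36. GNA13, a G protein subunit, had 8301 3'UTR reads in 17 clusters, the most of any member, and then 93 in 1 cluster, with 598 and 253 CDS reads. The group was small and was formed after the values were seen.

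Metabolic enzymes gave 15 members, among them ADSS, AMD1, DDAH1, HK2, MPST, MTHFD2, MTR, NADK, NUDT16, NUDT19, PSAT1, RDH11, RIMKLA and VKORC1L1. In 13 the 3'UTR was 2-fold lower and in 11 the CDS was 2-fold higher. MTHFD2, of mitochondrial folate metabolism, had 3026 3'UTR and 931 CDS reads with FH-DHX36-E335A and 235 and 439 with FH-DHX36. PSAT1, of serine synthesis, had 2035 and 249, and then 53 and 130.

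Ubiquitin and protein turnover gave 15, among them ARIH1, CDC34, DDRGK1, DTX3L, FBXO21, KLHL12, NDFIP2, SEL1L, SENP5, UBE2R2, UBR2, UBXN7, UFSP1 and WDR26. UBXN7, a p97 cofactor, had 3759 reads in 26 3'UTR clusters with FH-DHX36-E335A and 341 in 7 with FH-DHX36, and 435 and 379 CDS reads. UBE2R2 and CDC34, which are paralogous ubiquitin-conjugating enzymes, were both members. UBE2R2 had 2960 3'UTR and 198 CDS reads, and then 256 and 374. CDC34 had 486 and 74, and then 33 and 91.

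Translation and ribosome assembly gave 12, CCDC124, CTU1, DUS1L, EIF5, ELP6, MRPS2, MRTO4, MTO1, PDCD4, PTCD3, RPL36AL and RPLP0. MRTO4, a factor of large subunit assembly, had 1123 3'UTR and 31 CDS reads with FH-DHX36-E335A and 89 and 249 with FH-DHX36. RPLP0, of the ribosomal stalk, had 619 and 225, and then 204 in 1 CDS cluster. Of 47 RPL and RPS genes with enough reads 2 were members (4.26%, beside 5.74% of all genes), and 12 had a 3'UTR majority in FH-DHX36-E335A.

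The secretory pathway and transport gave 13, B4GALNT3, B4GALT5, CKAP4, LAMP1, SEC16A, SLC16A9, SLC25A44, SLC35B2, SLC4A2, SLC5A3, SRPRB, SYT11 and TMED10. In all 13 the CDS was 2-fold higher, beside 144 of the 179 members and 36.1% of all genes, which follows largely from the member rule. The 5 SLC genes were among 41 with enough reads (12.2%, beside 5.74% of all genes), 26 of which had a 3'UTR majority in FH-DHX36-E335A. Of all genes with that majority 11.7% were members. SLC5A3, the myo-inositol transporter, had 1372 3'UTR reads in 11 clusters and 686 CDS reads in 2 clusters with FH-DHX36-E335A, and 316 in 2 and 400 in 3 with FH-DHX36. The cytoskeleton gave 4, ACTB, ARPC1B, DYNC1H1 and KIF7. ACTB, cytoplasmic beta-actin, had 696 3'UTR and 368 CDS reads, and then no 3'UTR cluster and 282 CDS reads.

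The other 44 members were AAMP, AHDC1, ARRDC4, BLOC1S4, C4orf3, CCDC106, CDC42SE2, CDV3, CNNM3, COX18, DNAJA2, EGLN3, ERLIN1, FAM117B, FAM155B, FAM174A, FAT3, GFOD2, GIPC1, HDGFRP2, IER5, JPH1, KCTD2, LRFN1, MESDC2, NDRG1, NRSN2, PHB, PIAS4, PPP1R26, PSEN2, SCML1, SDCCAG3, SH3PXD2A, SOGA1, TBC1D16, TMEM181, TMEM43, TTC8, URGCP, WBP1L, WDR37, WDR89 and ZNF106. Their median log2 ratio was 3.06 for CDS reads and -2.004 for 3'UTR reads. NDRG1, a stress-induced gene, had 3333 3'UTR and 479 CDS reads with FH-DHX36-E335A and 231 and 458 with FH-DHX36. EGLN3, an oxygen-sensing prolyl hydroxylase, had 1653 and 264, and then 94 and 182. Scaled, the log2 ratio was 1.95 for CDS reads and -1.83 for 3'UTR reads in NDRG1, and 1.48 and -2.11 in EGLN3.

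The rule has sharp thresholds, and genes lay close on both sides of them. Just inside the 3'UTR threshold were ZSCAN20 at 50%, CRK at 50.02% and KAT6A at 50.16%, and just outside were PA2G4 at 49.86%, HNRNPL at 49.8% and RNF126 at 49.77%. Just inside the CDS threshold were ISG20L2 and KCTD2 at 50% and TMEM181 at 50.39%, and just outside were TRIM11 at 49.85%, OSBP at 49.41% and HSPBP1 at 49.33%. ISG20L2 and KCTD2 had equal FH-DHX36 reads in both regions. GFOD2, KDM2A and ZNRF3 had 100 FH-DHX36 reads, and AGO2, DYRK2 and YWHAB missed the minimum with 99. CCDC106, WDR37 and MTO1 had the fewest FH-DHX36-E335A reads, at 120, 128 and 131, and PLEKHG3, RNF215 and STOX2 missed it with 93, 93 and 92.

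Features that the rule did not use were taken from the canonical transcripts of GENCODE release 44 on GRCh37, for all 179 members and 3097 of the 3117 genes. The members had a median CDS of 1470 nt and a median 3'UTR of 2067 nt, against 1314 and 1586 nt over all. Genes with a 3'UTR majority in both PAR-CLIPs had medians of 1185 and 2245 nt, and those with a CDS majority in both had 1866 and 866 nt. In region lengths the members lay between the genes that kept the 3'UTR and those that kept the CDS, and nearer to the former in the 3'UTR.

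In G runs the members lay between these sets in the 3'UTR but not in the CDS. The CDS of members held a median of 4.26 matches per kb of 4 runs of at least 2 G, against 2.68 in genes mainly bound in the 3'UTR in both, 2.84 in genes mainly bound in the CDS in both and 2.78 over all. The 12 genes with the reverse pattern had a CDS median of 4.48, so that a high CDS density was not particular to the members. In the 3'UTR the medians of members, of the 2 sets with the same majority in both and of all genes were 1.75, 2.33, 0.50 and 1.53. At least 1 match was in the CDS of 177 members (98.9%), against 88.3% of all genes, and in the 3'UTR of 160 (89.4%), against 77.8%. Genes with a 3'UTR majority in FH-DHX36-E335A had a CDS match in 87.7% and a 3'UTR match in 93.5%, which is below the members for the CDS and above them for the 3'UTR. NUFIP2 and RPL36AL were the 2 members with none in the CDS. Longer regions hold more matches, which the density per kb takes into account but the shares do not.

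Base composition is given beside this density. The members' CDS had a median GC content of 55.8% and a G content of 28.7%, against 52.7% and 27.2% over all genes, and the part of composition in the difference was not tested. CDS GC and G content had medians of 54.2% and 27.2% in genes mainly bound in the 3'UTR in both, at 2.68 matches per kb. In genes mainly bound in the CDS in both they were 50.4% and 26.8%, at 2.84 matches per kb. The 12 genes with the reverse pattern had 59.0% and 29.7%, at 4.48 matches per kb. With runs of at least 3 G, a stricter form, 22 members had a CDS match (12.3%), against 7.07% of all, and 43 had a 3'UTR match (24.0%), against 20.9%. In genes with a 3'UTR majority in FH-DHX36-E335A these shares were 7.32% and 29.9%. Matches are letters in the reference sequence and do not show that a quadruplex forms or that DHX36 binds there. No p-value is given, since genes are not replicates of the cell lines.

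**Figure D5:**
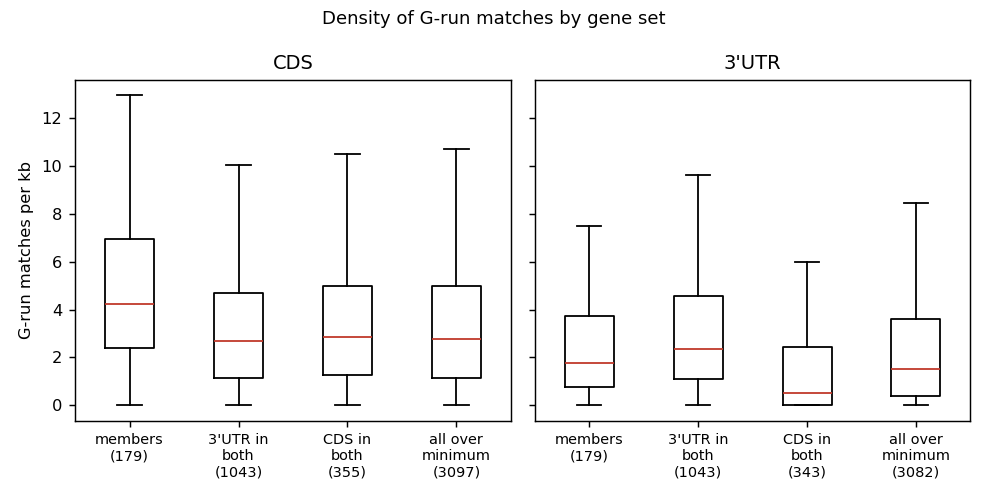
Matches per kb of 4 runs of at least 2 G, separated by 1 to 7 nt, in the CDS (left) and 3'UTR (right) of members, of genes with a 3'UTR or a CDS majority in both PAR-CLIPs, and of all genes over the read minimum; boxes are quartiles, red lines medians, whiskers the farthest values within 1.5 interquartile ranges, and numbers of genes are in parentheses. The CDS median of members, 4.26 per kb, lies above those of the other sets plotted, which are 2.68 to 2.84; the 12 genes with the reverse pattern, at 4.48, are not plotted.

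RNA abundance could be recovered from NXPM, a score in which scaled reads are divided by the abundance of the mRNA. The same abundance was used for both PAR-CLIPs, so it cannot differ between them in this table. It had a median of 6.07 in members, 7.26 in genes with a 3'UTR majority in FH-DHX36-E335A and 9.56 over all 3117 genes. NXPM had a median of 20.2 with FH-DHX36-E335A against 22.2 with FH-DHX36 in members, and 13.1 and 15.9 over all. In genes with a 3'UTR majority in FH-DHX36-E335A the medians were 21.7 and 21.1, close to those of members. NXPM was higher with FH-DHX36 in 103 of the 179 members. This count was not made over all genes, where the median was also higher with FH-DHX36, so nothing about the members is read from it. In LMNB2 NXPM was 47.2 and 143.8, in ARID1A 139.9 and 218.1, in FAM98A 95.8 and 53.3 and in EID2 24.4 and 24.2. NXPM was thus higher in some members and lower in others that all met the same rule.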

How the data were processed

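The authors ran PAR-CLIP on HEK293 lines with induced FH-DHX36 or FH-DHX36-E335A. Reads were converted with bcl2fastq 2.17.1 per the submitters' processing notes, and were mapped to hg19, with clusters called by PARalyzer in PARpipe and categorized with GENCODE 19. The authors deposited counts of clusters and counts of crosslinked reads without normalization, and NXPM, a deposited score of scaled reads divided by mRNA abundance. The 2 replicates per line were not separate in the table, and 0 value columns were left unmapped.

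Shares were taken over all crosslinked reads of a gene, and other annotation is the total less the 4 named regions. Log2 ratios used reads scaled to each table total (pseudocount 0.5 reads), medians over all genes left out genes with no read in the region in either PAR-CLIP, and fold calls used a floor of 3 reads and a fold of 2. Wilson intervals were at 95%. Scripts used Python 3.11.15, pandas 2.3.3, NumPy 2.4.6, SciPy 1.17.1 and matplotlib 3.10.9, and the member rule, the intervals, the ratios and the G-run search were tested on simulated data or planted sequences. Of the identifiers, 19066 were matched to GENCODE 44 on GRCh37 by symbol, Ensembl identifier or a RefSeq synonym (GRCh38.p14, names only). The files' annotation was GENCODE 19, so that region boundaries can differ.

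Members are named by role group, and some items are not reported here. Described in full were the 10 with the largest smaller read total, the 10 with the largest sum of percentage-point changes, examples of members with at least 4 FH-DHX36 CDS clusters, without a FH-DHX36-E335A CDS cluster or without a FH-DHX36 3'UTR cluster, and genes at the thresholds. Members and lists were chosen with earlier results of these data known. Examples in the role groups were chosen after their values were seen.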

Additional observations from a re-analysis of the deposited data

How the results depend on the processing

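The number of members depended on the limits. It was 274, 106 and 421 at minimums of 50, 200 and 1 reads, and 330 and 78 with shares of at least 40% and 60%. It was 360 with shares of exonic reads, and 108 when at least 2 FH-DHX36 CDS clusters were asked for, an alternative chosen after seeing the data. With shares of clusters it was 258. The reverse pattern, met by 12 genes, was met by 21, 7 and 49 at those read minimums, 31 and 3 with those shares, 72 with exonic reads and 119 with clusters. It was met by 6 genes when at least 2 FH-DHX36 3'UTR clusters were asked for, also chosen after seeing the data. Members outnumbered the reverse pattern under each of these settings. The median log2 ratios kept their sign under each scaling, pseudocount and floor, from 2.02 to 2.15 in the CDS and from -2.09 to -1.89 in the 3'UTR. The members were chosen by these same reads, so the kept sign is no support for the pattern. With runs of at least 3 G the mean density in members fell from 4.99 to 0.0847 per kb in the CDS and from 2.58 to 0.210 in the 3'UTR, since fewer stretches meet the stricter pattern. The canonical and the longest transcript gave the same median CDS length, and 3'UTR medians of 2067 and 2332 nt. No paired analysis was possible because the columns hold 1 value per cell line and carry no replicate numbers, and no replicate could be left out. The labels do not say how the replicates were combined. Depth limits the low end, since 100 FH-DHX36 reads can come from 1 cluster.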
